A study of Mus musculus with 8 samples.

Results

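The cytosolic ribosomal protein genes of the mouse lens were compared between strains and α3Cx46 genotypes. Members were the genes whose symbol is Rpl or Rps followed by a number, Rplp followed by a number, or Rpsa, leaving out the Rps6k kinases, and which had a probe set (the short oligonucleotides that together read 1 transcript on the chip) annotated with that symbol alone. This gave 35 genes on 49 probe sets, of 8251 genes on 10833 probe sets with 1 symbol. Each gene was read from the probe set with the highest mean signal over all arrays. The lenses came from mice aged 10 days in 4 groups: C57BL/6J α3Cx46 KO, C57BL/6J WT, 129SvJae α3Cx46 KO and 129SvJae WT, with 2 arrays each and a pool of 20 to 30 lenses of both sexes behind every RNA. C57BL/6J and 129SvJae are inbred strains. KO mice carry a targeted disruption of the gene of connexin 46, a gap junction subunit of lens fiber cells, and no other allele or treatment is given for any group. Nothing in the labels says whether the pools of a group held different mice, and the spread behind the p-values may thus be technical.

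The ribosome is built from a small subunit, which reads the messenger RNA, and a large subunit, which joins amino acids. Each subunit combines ribosomal RNA with many small, mostly basic proteins, nearly all of them encoded by a single active gene whose output has to match that of the others. Ribosomal protein mRNAs are among the most abundant in growing cells, and most of them begin with a run of pyrimidines (C and T in DNA) through which their translation follows growth signals. In the lens, epithelial cells hold ribosomes throughout, whereas fiber cells make large amounts of crystallin and then lose their organelles as they mature.

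The signals are intensities from Microarray Suite 5.0 on a linear scale, with every array scaled to the same mean, and signals near or under 50 are close to background. Between 7637 and 8602 probe sets per array lay above 50. Fiber markers that define the tissue were bright on all arrays, Cryaa (αA-crystallin) at 31300 to 72854 and Mip (the fiber water channel) at 11002 to 16494. The disrupted gene, Gja3, had signals of 445 to 520 on the 4 KO arrays and of 1101 to 3383 on the 4 WT arrays. The 4 arrays numbered 1 shared a scan session, 3 of those numbered 2 shared another, and 129SvJae WT replicate 2 had its own. A fluidics error is noted for C57BL/6J WT replicate 1.

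Of the 35 genes, 17 encode large and 18 small subunit proteins by their names. The brightest was Rpl41, which encodes the smallest protein of the ribosome, and 19 members had a mean signal above 1000. These bright members, 9 of the large and 10 of the small subunit, had mean signals of 3178 (Rps19) to 46892 (Rpl41). The other 16 lay at 679 (Rpl13a) or lower, with no member between those values, so the division at 1000, which was made after the signals were seen, separated 2 sets. A lower signal is a property of the probe set as much as of the transcript, and signals of different genes were not compared beyond this division. Rpl41 and Rps28 were read from probe sets with names ending in _f_at, whereas 15 bright members had the plain ending _at. How far near-identical sequences share in these signals was not tested. The Rps24 probe set, counted as bright, has the same source sequence as that of Rpl7, so which transcript it measures is uncertain. A second Rps24 probe set had a mean signal of 137. All members except Rpl32, an RNA-binding protein of the large subunit, had a mean above 50 in at least 1 group and were tested. Rpl32 had 47.3 and 18.7 in C57BL/6J KO lenses, 13.7 and 48.0 in C57BL/6J WT lenses, 35.5 and 43.2 in 129SvJae KO lenses, and 60.6 and 16.3 in 129SvJae WT lenses, and only 1 of these 8 signals was above 50. Among the 15 dim members that were tested, 7 had at least 1 array under 50. The chip holds 39 further probe sets that pair a ribosomal protein symbol with other symbols. These were left out, and among the genes not analysed here are Rplp1 and Rplp2 of the stalk, Rps6, the kinase target of the small subunit, and Rpl5 and Rpl11, which bind 5S ribosomal RNA.

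The first comparison asked whether C57BL/6J and 129SvJae lenses differ in these transcripts. Averaged over genotypes, 4 genes, all of the small subunit, had lower signals in C57BL/6J than in 129SvJae lenses on every array, and 1 gene of the large subunit had higher ones. None of the 34 members passed limma after Benjamini-Hochberg adjustment over all 10078 probe sets tested, where 0.367% were called at an adjusted p under 0.05. At an unadjusted p under 0.05 there were 4 members (11.8%), all lower in C57BL/6J, against 6.98% of all probe sets in either direction, 3.65% in the higher and 3.32% in the lower one. The lower genes were Rps3a1, Rps7, Rpsa and Rps4x, all of them bright. Of all 866 tested probe sets with a mean signal above 1000, 169 had an unadjusted p under 0.05 in either direction. This is a share similar to the 4 of 19 bright members. No member was higher at that level.

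Rps3a1 encodes a protein near the channel through which the messenger leaves the small subunit. Its signals were 9646 and 11441 in C57BL/6J KO lenses, 9470 and 12219 in C57BL/6J WT lenses, 13347 and 15518 in 129SvJae KO lenses, and 14028 and 13728 in 129SvJae WT lenses. The highest C57BL/6J array was below the lowest 129SvJae array. The mean was 10694 ± 1351 in C57BL/6J and 14155 ± 950.0 in 129SvJae lenses (SD, n = 4 each), a log2 ratio of -0.41 (SE 0.14, unadjusted p = 0.0114, adjusted p = 0.438 from limma), or 1.33-fold lower.

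Rps7, a small subunit protein that is also needed for the maturation of the subunit's RNA, gave 12185 and 12111 in C57BL/6J KO lenses, 14960 and 12412 in C57BL/6J WT lenses, 15247 and 17041 in 129SvJae KO lenses, and 16926 and 17855 in 129SvJae WT lenses. The strains did not overlap here either, although C57BL/6J WT replicate 1 came close to 129SvJae KO replicate 1. The means were 12917 ± 1368 in C57BL/6J and 16767 ± 1095 in 129SvJae lenses (SD, n = 4 each), with a log2 ratio of -0.38 (SE 0.13, unadjusted p = 0.0120, adjusted p = 0.446 from limma).

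Rpsa, a small subunit protein first described as a laminin receptor, had 3237 and 3853 in C57BL/6J KO lenses, 4219 and 4218 in C57BL/6J WT lenses, 5124 and 5343 in 129SvJae KO lenses, and 4228 and 5050 in 129SvJae WT lenses. The strains did not overlap, but 129SvJae WT replicate 1 exceeded both C57BL/6J WT arrays by a few units only. The log2 ratio was -0.35 (SE 0.13, unadjusted p = 0.0221, adjusted p = 0.555 from limma) averaged over genotypes. It was -0.57 (SE 0.19, unadjusted p = 0.0106) in KO and -0.13 (SE 0.19, unadjusted p = 0.502) in WT lenses, and the difference between both ratios, -0.44 (SE 0.27, unadjusted p = 0.130, adjusted p = 1.0 from limma), did not pass the test.

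Rps4x, whose gene lies on the X chromosome, had 8281 and 9277 in C57BL/6J KO lenses, 9728 and 9391 in C57BL/6J WT lenses, 10314 and 11240 in 129SvJae KO lenses, and 12478 and 10670 in 129SvJae WT lenses. All 129SvJae arrays were higher than all C57BL/6J arrays, with a log2 ratio of -0.28 (SE 0.13, unadjusted p = 0.0464, adjusted p = 0.700 from limma). The gene has 4 dimmer probe sets with mean signals of 16.2 to 76.8. Of these, 2 could be tested, and their log2 ratios were -0.99 (SE 0.72) and 0.42 (SE 0.73), so the sign of the second was opposite and both were too imprecise to tell from 0. Rps4l, a gene closely similar to Rps4x, had a log2 ratio of 0.38 (SE 0.20, unadjusted p = 0.0823) with mean signals of 605 ± 77.5 in C57BL/6J and 465 ± 61.5 in 129SvJae lenses (SD, n = 4 each). Near-identical sequences can share hybridization on this chip, so the division of signal between such genes is uncertain.

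On the higher side, Rplp0, the protein at the base of the stalk of the large subunit and a common reference gene in PCR, had 19313 and 18798 in C57BL/6J KO lenses, 20654 and 19124 in C57BL/6J WT lenses, 17450 and 16116 in 129SvJae KO lenses, and 16920 and 18442 in 129SvJae WT lenses. All 4 C57BL/6J arrays were above all 4 129SvJae arrays. The difference was small, however, at 19472 ± 816 in C57BL/6J and 17232 ± 976 in 129SvJae lenses (SD, n = 4 each), a log2 ratio of 0.18 (SE 0.13, unadjusted p = 0.184, adjusted p = 0.886 from limma). Counting members whose strains did not overlap gave 4 lower (11.8%) and 1 higher (2.94%), whereas among all probe sets 2.62% were lower and 2.95% higher without overlap. The members without overlap were all bright, and the share among bright probe sets alone was not computed.

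**Figure D1:**
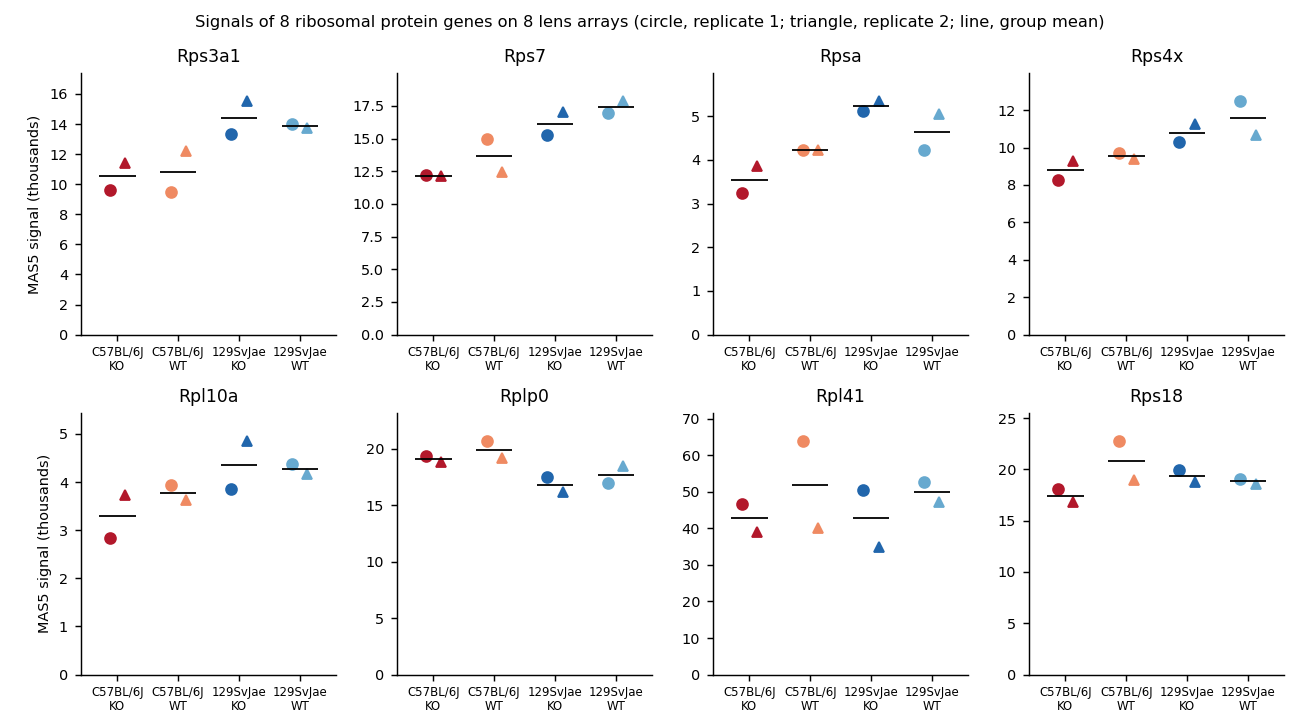
MAS5 signals, divided by 1000 on a linear axis from 0, of 8 ribosomal protein genes on the 8 arrays, for C57BL/6J KO, C57BL/6J WT, 129SvJae KO and 129SvJae WT lenses from left to right; circles are replicate 1, triangles replicate 2 and lines group means. For Rps3a1, Rps7, Rpsa and Rps4x all C57BL/6J points lie below all 129SvJae points, for Rplp0 above them, and for Rpl10a, Rpl41 and Rps18 the strains overlap.

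The 4 lower genes are spread over chromosomes 3 (Rps3a1), 12 (Rps7), 9 (Rpsa) and X (Rps4x). The stretches around their start sites are given here with that of Rplp0, which had the opposite sign, and those of Rps10, Rps18, Rps27 and Rpl7a, which are examples with a long pyrimidine run. Each line gives the 60 bases before and the 20 from the RefSeq start on, in GRCm38.p6, with the longest unbroken run of C and T around the start (overlapping the 10 bases on either side of it) in capitals.
Rps3a1 (chr3:86142649-86142728, minus strand): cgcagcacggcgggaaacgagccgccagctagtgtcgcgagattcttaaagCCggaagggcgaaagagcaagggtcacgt
Rps7 (chr12:28635934-28636013, minus strand): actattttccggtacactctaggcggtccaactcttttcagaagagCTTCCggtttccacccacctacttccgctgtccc
Rpsa (chr9:120127706-120127785, plus strand): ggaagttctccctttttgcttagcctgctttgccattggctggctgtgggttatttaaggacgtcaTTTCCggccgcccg
Rps4x (chrX:102189372-102189451, minus strand): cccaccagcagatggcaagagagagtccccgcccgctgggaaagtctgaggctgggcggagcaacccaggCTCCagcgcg
Rplp0 (chr5:115559407-115559486, plus strand): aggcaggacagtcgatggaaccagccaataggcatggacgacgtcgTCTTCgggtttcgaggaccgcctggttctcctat
Rps10 (chr17:27635225-27635304, minus strand): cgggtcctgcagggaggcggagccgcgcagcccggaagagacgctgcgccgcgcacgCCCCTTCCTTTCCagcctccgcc
Rps18 (chr17:33955646-33955725, minus strand): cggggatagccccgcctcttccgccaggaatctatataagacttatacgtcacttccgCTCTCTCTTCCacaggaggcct
Rps27 (chr3:90213629-90213708, minus strand): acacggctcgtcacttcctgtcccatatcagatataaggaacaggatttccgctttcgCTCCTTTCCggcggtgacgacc
Rpl7a (chr2:26910747-26910826, plus strand): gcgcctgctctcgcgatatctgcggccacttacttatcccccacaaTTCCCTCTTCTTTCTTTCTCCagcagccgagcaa
The run was 2 to 5 bases long in the 4 lower genes and in Rplp0. The others shown were picked for their runs of 9 to 21 bases, so nothing follows from the contrast. Over the 28 members with a RefSeq window the median run was 5 bases. RefSeq starts are those of annotated transcripts, which need not be the start used in the lens.

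RefSeq windows of 250 bases before and 50 after the start were at hand for 28 of the 35 members and were set beside those of 17492 protein-coding genes. A pyrimidine run of 8 or more bases at the start was present in 9 members (32.1%) and in 13.6% of all genes. The letters CTTTCC within 10 bases of the start, on the sense strand, were found in 5 members (17.9%) against 1.04%. On either strand and anywhere in the window, CTTTCC was in 14 members against 25.7% of all genes. CCGGAAG, the core bound by ETS factors such as GABP, was in 42.9% against 11.9%, and AAGATGGC, the core of the YY1 motif, in 14.3% against 3.22%. GGGCGG, the GC box, was in 57.1% against 46.3%, and TATAAA in 10.7% against 13.3%. Motif matches describe these windows only. Of the 4 genes with lower signals in C57BL/6J, Rps3a1, Rps7 and Rpsa had CCGGAAG in the window, and Rps4x did not.

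Taken as a group, the bright members leaned to lower values in C57BL/6J lenses, by amounts near the standard error of a single gene. Their log2 ratios averaged over genotypes ran between -0.41 and 0.18 with a median of -0.13. Of the 19, 15 were below 0, whereas 50.9% of all probe sets were above 0. Some lay next to 0, with Rps24 and Rps18 at -0.0 and Rps28 at -0.02 below it, and Rps19 at 0.0 and Rpl41 at 0.02 above it. Another bright probe set of Rps28 gave 0.11 (SE 0.13). With the probe sets of a gene averaged, 13 of the 19 were below 0. All 866 tested probe sets with a mean signal above 1000 had a median of -0.06, with 526 below 0. Over all 34 members the median was -0.03, and over all probe sets tested it was 0.01. The bright members' median ran from -0.18 to -0.07 over the alternatives in processing and in the arrays left out, with 12 to 17 of the 19 below 0. The ends of this range came from quantile normalization (-0.07) and from centring each array on its median (-0.18), which put all probe sets at -0.01 and -0.04. In bulk lens RNA, fewer cells of a type and less RNA per cell cannot be told apart. The subunits gave similar medians, -0.13 for the 9 large and -0.09 for the 10 small subunit members among the bright ones, although all 4 genes with an unadjusted p under 0.05 were of the small subunit.

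Each of the bright members was measured narrowly. Standard errors of the averaged strain ratio were 0.12 to 0.19 on the log2 scale. All 19 intervals (95%) lay within a 2-fold change in either direction, from -0.71 to 0.45 at their outer ends, and 14 lay within 1.5-fold. The median residual SD was 0.129 for the bright members, against 0.234 for all probe sets with a mean above 1000. These sets are not matched in level, since the lowest mean signal was 3178 among the bright members and 1001 among all such probe sets. Rps18, a protein of the head of the small subunit, had an averaged log2 ratio of 0.00 (SE 0.13), with 18051 and 16836 in C57BL/6J KO lenses, 22752 and 18952 in C57BL/6J WT lenses, 19925 and 18742 in 129SvJae KO lenses, and 19056 and 18604 in 129SvJae WT lenses. Rpl19 of the large subunit had -0.04 (SE 0.12), with all 8 signals between 9699 and 11610. Rps19, the first gene found mutated in human Diamond-Blackfan anemia, had 0.00 (SE 0.19) and signals of 2574 to 4445.

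Rpl10a, of the stalk beside the exit site of the large subunit, was the next lower gene. It had 2842 and 3740 in C57BL/6J KO lenses, 3930 and 3623 in C57BL/6J WT lenses, 3860 and 4848 in 129SvJae KO lenses, and 4365 and 4157 in 129SvJae WT lenses, where 1 C57BL/6J WT array overlapped the 129SvJae range. The log2 ratio was -0.29 (SE 0.15, unadjusted p = 0.0669 from limma), and a second, dimmer probe set of the gene gave -0.32 (SE 0.15). Rps3, which lines the channel where the messenger enters, had -0.16 (SE 0.13), and Rpl7a had -0.20 (SE 0.16). The other bright members of the large subunit were Rpl8, which lies close to the site of peptide bond formation, at -0.17 (SE 0.13), Rpl6 at -0.23 (SE 0.17), Rpl7 at -0.13 (SE 0.13) and Rpl37a at -0.10 (SE 0.13). The signals of Rpl8 were 8879 and 8794 in C57BL/6J KO lenses, 9680 and 8897 in C57BL/6J WT lenses, 10884 and 10682 in 129SvJae KO lenses, and 8793 and 10675 in 129SvJae WT lenses, so that the strains separated in KO and overlapped in WT lenses. Rpl6 ran from 5800 to 7238 on the C57BL/6J arrays and from 6318 to 10178 on the 129SvJae arrays. The probe set of Rpl7a carries the accession of a genomic sequence that it shares with Surf1 and Surf2.

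The dim members gave wide intervals. Among the 15, standard errors were 0.19 to 1.03, and 4 intervals lay within 2-fold. Rps29, a zinc-binding protein of the small subunit, had 365.4 and 206.9 in C57BL/6J KO lenses, 401.2 and 316.5 in C57BL/6J WT lenses, 330.6 and 122.1 in 129SvJae KO lenses, and 269.7 and 64.7 in 129SvJae WT lenses. Its strain ratio was 0.94 (SE 0.45, unadjusted p = 0.0555 from limma), with replicate 2 of both 129SvJae groups at the low end. The ratio was 0.43 without 129SvJae WT replicate 2, 0.58 without 129SvJae KO replicate 2 and 1.46 without 129SvJae WT replicate 1. Rpl35a of the large subunit had 0.73 (SE 0.66) with 6 of 8 arrays under 50, and Rps14, a small subunit protein reduced in human 5q- syndrome, had 0.42 (SE 0.88) with 3 arrays under 50. Rps27l and Rpl39l, paralogs of Rps27 and Rpl39, had -0.02 (SE 0.71) and -0.21 (SE 0.84). Rpl39, which lines the exit tunnel, had 0.20 (SE 0.77). Rpl7l1, a paralog of Rpl7, had -0.47 (SE 0.43), Rpl38 -0.18 (SE 0.46), Rps15 -0.07 (SE 1.03), Rps20 0.01 (SE 0.84) and Rps13 0.08 (SE 0.33). The brighter ones among the dim members were Rps27 at -0.12 (SE 0.24) and Rpl13a at 0.02 (SE 0.19). Where the SE was 0.66 or more, the interval reached beyond a 2-fold change in at least 1 direction.

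**Figure D2:**
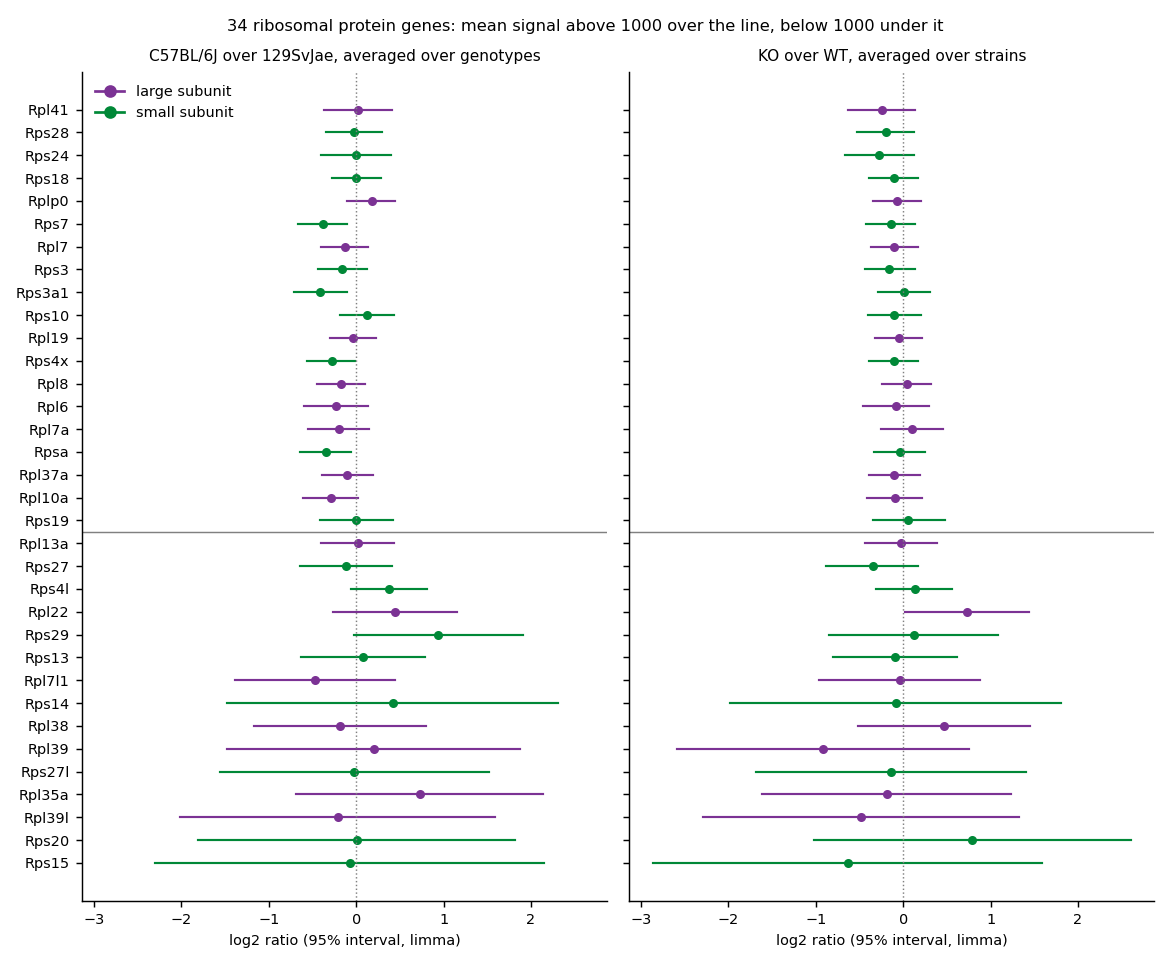
Log2 ratios (x axis) with 95% intervals from limma for the 34 ribosomal protein genes tested (y axis, by mean signal), C57BL/6J over 129SvJae on the left and KO over WT on the right, with purple for the large and green for the small subunit. Above the horizontal line, the 19 genes with a mean signal above 1000 have narrow intervals within 2-fold of 0; below it, the 15 dim genes mostly have wider ones.

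The strain differences of KO and WT lenses come from separate arrays, so each can be set beside the other. In KO lenses no member was called (0.0893% of all probe sets were), and Rps3a1, Rps7 and Rpsa had an unadjusted p under 0.05, all lower in C57BL/6J (8.82% of members, against 3.74% of all probe sets in either direction and 1.59% in the lower one). Of the 866 bright probe sets, 79 had an unadjusted p under 0.05 in KO lenses in either direction, beside 3 of the 19 bright members. In WT lenses no member was called (0.0695% of all probe sets were), and 1 had an unadjusted p under 0.05 (2.94%, against 6.47% in either direction and 3.29% in the higher one), which was Rps29 with a higher ratio of 1.43 (SE 0.63, unadjusted p = 0.0416). Leaving out 129SvJae WT replicate 2 gave 0.40 (unadjusted p = 0.511), and leaving out 129SvJae WT replicate 1 gave 2.46 (unadjusted p = 0.00199, adjusted p = 0.542, both from limma). The bright members had a median of -0.17 in KO lenses, with 16 of 19 below 0, and of -0.10 in WT lenses, with 13 of 19 below 0. The KO value ran from -0.27 to -0.10 over the alternatives. The WT value was -0.04, with 11 below 0, without 129SvJae WT replicate 2 and -0.18, with 14 below 0, without C57BL/6J WT replicate 1, so the difference between the KO and WT values was within what 1 array changes. Of all probe sets, 53.2% were above 0 in KO and 48.6% in WT lenses. The 866 bright probe sets leaned low as well. Their median was -0.09 in KO lenses, with 548 below 0, and -0.04 in WT lenses, with 487 below 0. Of the 19, 12 were lower in C57BL/6J in both genotypes and 2 higher in both (Rplp0 and Rpl41). Across these genes, which share arrays and are not independent replicates, the ratios of KO and WT lenses correlated at r = 0.64 and rho = 0.67. The 866 bright probe sets as a whole gave r = 0.75 with 69.9% of equal sign, close to the 73.7% of the bright members. The dim members had r = -0.37, and 5 of 15 agreed in sign.

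Of the 4 lower genes, Rps3a1, Rps7 and Rps4x had close ratios in both genotypes. Rps3a1 had -0.45 (SE 0.20) in KO and -0.37 (SE 0.20) in WT lenses, and Rps7 had -0.41 (SE 0.18) in KO and -0.35 (SE 0.18) in WT lenses. Rps4x had -0.30 (SE 0.18) in KO and -0.27 (SE 0.18) in WT lenses. Rps10, a small subunit protein, had -0.02 (SE 0.20) in KO and 0.27 (SE 0.20) in WT lenses. The test of whether the strain difference depends on genotype (limma) called no member and 0.0% of all probe sets, and at an unadjusted p under 0.05 it took in 0 of 34 members against 2.11% of all.

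**Figure D3:**
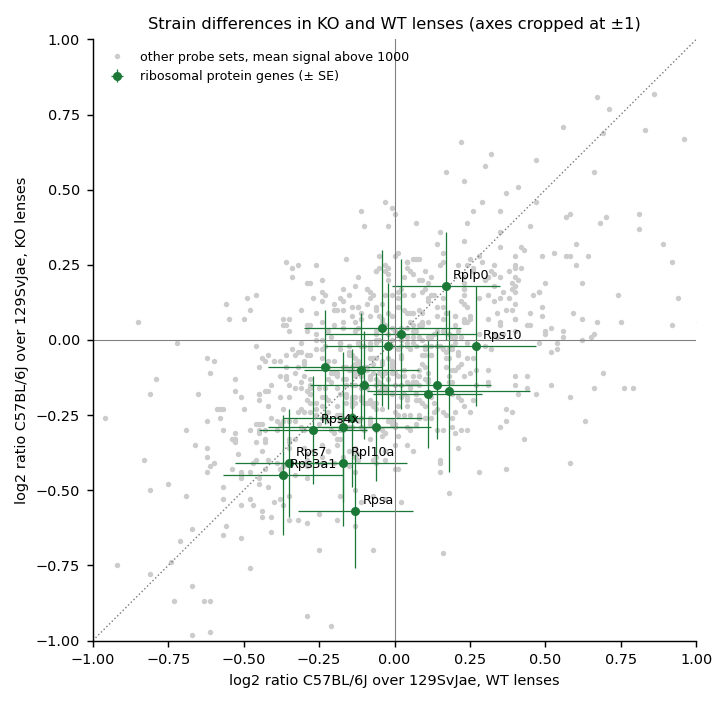
Log2 ratios of C57BL/6J over 129SvJae in KO lenses (y axis) and WT lenses (x axis) for the 19 bright ribosomal protein genes (green, with standard errors) and the other tested probe sets with a mean signal above 1000 (gray); 23 of the 866 lie outside the axes, none of them a ribosomal protein gene. Most green points lie below 0 on both axes, Rplp0 lies above 0 on both, and Rpsa is farther below 0 in KO than in WT lenses.

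The second comparison asked whether loss of connexin 46 changes these transcripts. Averaged over strains, no member was called, and 0.0198% of all probe sets were. At an unadjusted p under 0.05 there was 1 member, higher in KO (2.94%, against 3.05% of all probe sets in either direction and 1.36% in the higher one), and in no member were the KO arrays all above or all below the WT arrays (0.972% and 1.22% of all probe sets were). The bright members had ratios of KO over WT from -0.28 to 0.10, with a median of -0.10 and 15 of 19 below 0, where 47.3% of all probe sets were above 0. All bright probe sets had a median of 0.02, and all probe sets one of -0.02. After quantile normalization the bright members' median was -0.01 and that of all probe sets 0.01. Centring each array on its median put the bright members at 0.00 and all probe sets at 0.08, so the sign relative to 0 rests on the scaling. The bright members' median was below that of all probe sets in both cases, but only slightly after quantile normalization. The median of all bright probe sets was not computed under these scalings. All 19 intervals lay within 2-fold and 17 within 1.5-fold.

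The 1 member was Rpl22, an RNA-binding protein of the large subunit that mice can replace by its paralog in most tissues. It had 480.0 and 511.5 in C57BL/6J KO lenses, 339.1 and 351.8 in C57BL/6J WT lenses, 455.7 and 390.1 in 129SvJae KO lenses, and 117.7 and 411.6 in 129SvJae WT lenses. The log2 ratio of KO over WT was 0.73 (SE 0.33, unadjusted p = 0.0445, adjusted p = 0.998 from limma), and the low signal of 129SvJae WT replicate 1 stands apart from the other 7. Without that array the ratio was 0.28, without 129SvJae WT replicate 2 it was 1.18, and with the gene's probe sets averaged it was 0.11. The unadjusted p was under 0.05 in 8 of the 22 alternatives. A dimmer probe set of the gene had the opposite sign, -0.51 (SE 0.48).

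Rpl41 had 46754 and 38981 in C57BL/6J KO lenses, 63891 and 40019 in C57BL/6J WT lenses, 50630 and 34977 in 129SvJae KO lenses, and 52732 and 47148 in 129SvJae WT lenses. The genotypes overlapped, with a KO ratio of -0.24 (SE 0.18, unadjusted p = 0.196), and so did the strains, with a strain ratio of 0.02 (SE 0.18, unadjusted p = 0.911 from limma). After quantile normalization the KO ratio of Rpl41 was 0.13 and that of Rps28 0.02, and both were below 0 as scaled by the authors. Rps28, a small subunit protein, had a KO ratio of -0.20 (SE 0.15) through its brightest probe set and -0.01 (SE 0.13) through another bright one. Rps27 of the small subunit had -0.35 (SE 0.24). Among other dim members, Rpl39 had -0.92 (SE 0.77). On the higher side were Rpl38, whose loss of a copy alters the skeleton of mice, at 0.47 (SE 0.46), and Rps20 at 0.79 (SE 0.84) with 6 of 8 arrays under 50.

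Within C57BL/6J lenses the bright members were lower in KO for 18 of 19, with a median of -0.14 and a range of -0.26 to 0.04, where all bright probe sets had a median of -0.01 and 49.8% of all probe sets were above 0. Rpsa had -0.26 (SE 0.19), Rps18 -0.25 (SE 0.18) and Rps10 -0.25 (SE 0.20), and Rpl7a alone was above 0 at 0.04 (SE 0.23). The median ran from -0.22 to -0.08 over the alternatives, and the count of genes below 0 from 14, without C57BL/6J WT replicate 1, to 19, without C57BL/6J KO replicate 2. No member had an unadjusted p under 0.05 (2.31% of all probe sets did), and none was called (0.00992% of all probe sets were). Within 129SvJae lenses 10 of 19 were below 0 (45.1% of all probe sets were above 0). The bright members' median was -0.02, beside 0.04 for all bright probe sets and -0.05 for all probe sets. Without 129SvJae KO replicate 2 this median was -0.12, with 14 of 19 below 0. It was 0.04 after quantile normalization and 0.12 when arrays were centred on their medians, where all probe sets had 0.00 and 0.09. Again no member was called or had an unadjusted p under 0.05, against 0.0% and 3.12% of all probe sets. The difference between the strains in the KO effect is the interaction given above, which passed for no member.

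**Figure D4:**
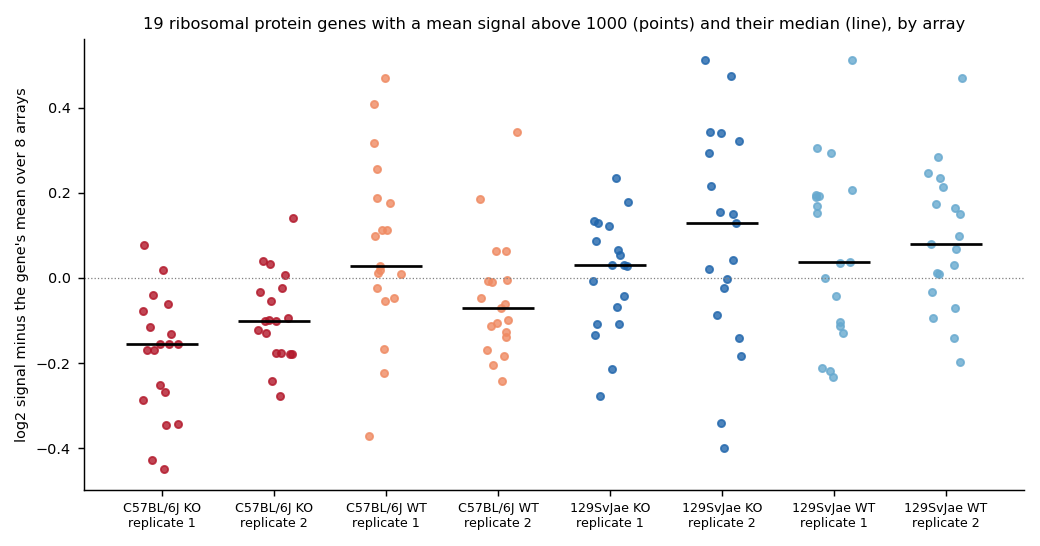
Log2 signal minus the gene's mean over the 8 arrays (y axis) for the 19 ribosomal protein genes with a mean signal above 1000 (points), by array, with their median as a line. The medians are -0.16 and -0.10 on the C57BL/6J KO arrays, 0.03 and -0.07 on C57BL/6J WT, 0.03 and 0.13 on 129SvJae KO, and 0.04 and 0.08 on 129SvJae WT, replicate 1 before replicate 2.

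By array, the bright members were lowest as a group on C57BL/6J KO replicate 1 and highest on 129SvJae KO replicate 2. The medians of their deviations were -0.16 and -0.10 in C57BL/6J KO lenses, 0.03 and -0.07 in C57BL/6J WT lenses, 0.03 and 0.13 in 129SvJae KO lenses, and 0.04 and 0.08 in 129SvJae WT lenses. All bright probe sets had -0.07 and 0.01 on the C57BL/6J KO arrays, -0.06 and 0.00 on the C57BL/6J WT arrays, 0.02 and 0.08 on the 129SvJae KO arrays, and -0.04 and 0.07 on the 129SvJae WT arrays, so the spread between arrays was shared in part by other bright probe sets. The summed signal of 6 fiber markers was 167737 and 198918 in C57BL/6J KO lenses (replicates by size), 182635 and 250203 in C57BL/6J WT lenses, 141325 and 189428 in 129SvJae KO lenses, and 196169 and 230688 in 129SvJae WT lenses. Strain ranges overlapped for this list, for 5 epithelial markers and for the red blood cell, retina, vessel, macrophage and pigment cell lists, and limma called no gene of them in either averaged comparison. Some markers of other cell types were above background. Of the macrophage genes, C1qb had 1928 to 6093 and Csf1r 74.8 to 405, while Lyz2 and C1qa stayed under 50. Of the red blood cell genes, Hba-a1 had 162 to 642 and Slc4a1 63.5 to 168, while Alas2 stayed under 50. Of the photoreceptor genes, Sag had 10.0 to 476 and Pdc 39.7 to 180, while Rcvrn stayed under 50. The part of cell composition in the ribosomal protein values was not tested.

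The replicates of a group differed by as much as the groups did for some members. Replicate 1 was above replicate 2 in all 4 groups for 6 of 34 members (17.6%, against 14.5% of all probe sets) and below it in all 4 for 1, Rpl7a (2.94%, against 9.53%). Rpl41 differed by 0.26 in C57BL/6J KO lenses, 0.68 in C57BL/6J WT lenses, 0.53 in 129SvJae KO and 0.16 in 129SvJae WT lenses on the log2 scale. The others above were Rps18, Rps24, Rps27l, Rps28 and Rps29. Cryaa, the brightest fiber marker, went the same way, with 55677 and 38474 in C57BL/6J KO lenses, 72854 and 41106 in C57BL/6J WT lenses, 49552 and 31300 in 129SvJae KO lenses, and 68032 and 48036 in 129SvJae WT lenses. The replicate number follows the scan session except for 129SvJae WT replicate 2, and the part of the session in these differences was not tested. In contrast, Rps7 and Rps3 had both signs among the groups. The Rps24 probe set used here, with a mean signal of 23425, carries the same source accession as the Rpl7 probe set, so which transcript it measures is uncertain, and a second Rps24 probe set with a mean of 137 gave a strain ratio of 0.28 (SE 0.34).

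**Figure D5:**
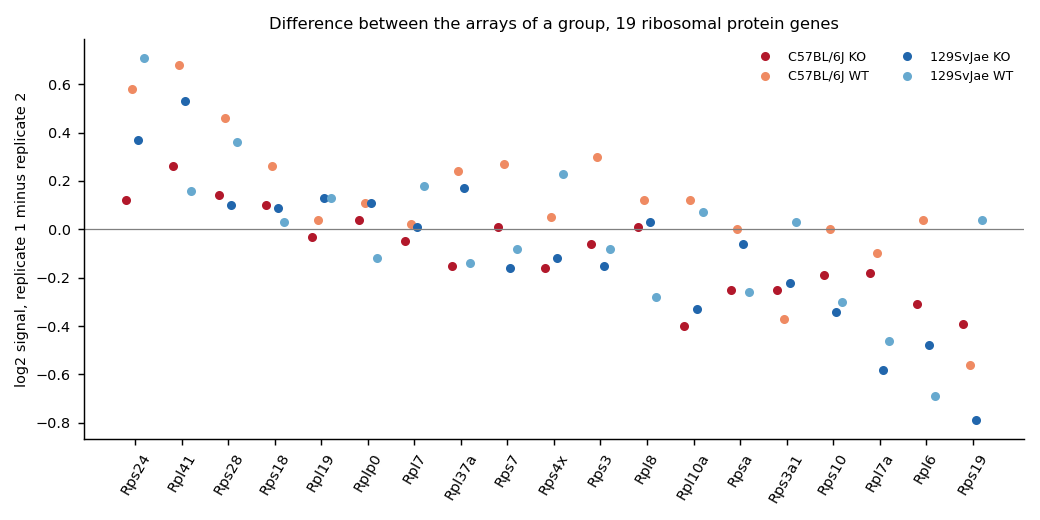
Log2 signal of replicate 1 minus replicate 2 (y axis) in the 4 groups (colors) for the 19 bright ribosomal protein genes (x axis), ordered by the mean difference. Rps24, Rpl41, Rps28 and Rps18 are above 0 in all groups, Rpl7a is below 0 in all, and the others have both signs or a difference near 0 in some group.

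Other genes of the translation apparatus were read from lists. Of 61 mitochondrial ribosomal protein genes on the chip, 59 were tested and none was called in any comparison. Their median strain ratio was -0.11 averaged over genotypes, with 35 of 59 below 0, and their median KO ratio was -0.06. Of 34 genes of ribosome assembly, such as those of nucleolar proteins and RNA polymerase I, 33 were tested and none was called, with medians of 0.04 for the strain and -0.07 for the KO ratio. Of 17 other genes whose transcripts carry a terminal pyrimidine run, 16 were tested. Of these, 1 was called, Gas5, whose introns encode small nucleolar RNAs, which was higher in C57BL/6J lenses at 4.19 (SE 0.14, adjusted p = 2.27e-09 from limma), and the list's median was 0.04. Eef1a1 and Tpt1, both of them abundant, had strain ratios of -0.12 (SE 0.13) and -0.02 (SE 0.14). Pabpc1, the poly(A)-binding protein of the cytoplasm, was named after its values were seen. It had 14314 and 14929 in C57BL/6J KO lenses, 17369 and 16719 in C57BL/6J WT lenses, 19520 and 19686 in 129SvJae KO lenses, and 22942 and 19036 in 129SvJae WT lenses, without overlap of the strains, and a ratio of -0.36 (SE 0.13, unadjusted p = 0.0154, adjusted p = 0.475 from limma).

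The unadjusted strain results of the 4 lower genes held under some of the 22 alternatives. Rps7 kept an unadjusted p under 0.05 in 19 of them, Rps3a1 and Rpsa in 17 each and Rps4x in 10, and all kept their sign in all 22. Over these, the adjusted p ranged from 0.0504 to 0.993 for Rps3a1, from 0.174 to 0.924 for Rps7, from 0.244 to 0.999 for Rpsa and from 0.150 to 0.999 for Rps4x. The lowest of these, for Rps3a1, came from the fit blocked by scan session. That block gives 129SvJae WT replicate 2 a term of its own, so the mean of its group then rests on replicate 1 alone. The count of members at an unadjusted p under 0.05 was 0 without 129SvJae KO replicate 2 or without a trend in the variance prior, 1 without C57BL/6J KO replicate 1 or with each array centred on its median, and 2 without C57BL/6J WT replicate 2. It was 6, of which 1 was higher in C57BL/6J, in the fit blocked by replicate number and 7, of which 2 were higher, in that blocked by scan session. The count over all probe sets was 936 and 1284 in these fits, against 703 without a block.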

How the data were processed

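Biotin-labeled cRNA from each of 8 lens RNA pools was hybridized to 1 MG-U74Av2 chip. The deposited values are intensities, 1 MAS5 signal per probe set and array on a linear scale, which the authors scaled to a mean of 250. The tool is named without a version in the submitters' processing notes. All 8 deposited sample columns were used, and 0 further columns were left aside. Without the 2% of probe sets at each end, every array had a mean of 250.2. For the tests, arrays were rescaled to a trimmed mean of 250, signals under 1, of which 1 was not above 0, were raised to 1, and log2 was taken. Control probe sets (66 of 12488) were left out, and the 10078 probe sets with a group mean above 50 in at least 1 group were tested. Genes were named from probe sets with 1 symbol (10833 of 12422), and promoter windows came from RefSeq (GRCm38.p6). The genome build behind the chip's annotation is not stated in the labels or methods.

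A single limma fit (3.58.1, R 4.3.3) with 1 mean per group, a variance prior that follows the mean signal, 4 residual and 9.17 prior degrees of freedom gave all ratios, on the log2 scale. Calls are Benjamini-Hochberg adjusted p under 0.05 over all probe sets, and the percentages that counts of members are set against are shares of all probe sets. The fit was tested on simulated data. Members and lists were chosen with earlier results of these data known. Named genes are those with well-known roles, called members, the 5 smallest p per direction in both averaged comparisons, genes whose probe sets disagree in sign, and members under the filter. The division at a signal of 1000, the arrays without overlap, the replicate differences and the motifs were chosen after the data were seen.

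Replicate numbers pair the arrays, since deviations from group means of equally numbered arrays correlated at 0.13 to 0.206 in all 6 pairs of groups and the number follows the scan session. Alternatives in scaling were the deposited scale, centring of each array on its median and quantile normalization. Others changed the treatment of low signals (an added offset of 16, signals under 50 set to 50, a level filter of 100 or none), the fit (a constant or robust variance prior, array weights, blocking by replicate number or by scan session, each comparison fitted alone, the methods' t-test) or the samples and probe sets (each array left out, all probe sets of a gene averaged). Array depth is no count, and 2 arrays per group limit the precision.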

Additional observations from a re-analysis of the deposited data

How the results depend on the processing

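No ribosomal protein gene was called in any of the 7 comparisons under any of the alternatives run, a count of 0 in 157 of 157 cases. The lowest adjusted p of a member averaged over genotypes (Rps3a1) was 0.135 in the fit with a replicate block and 0.0504 in that blocked by scan session, and neither block changed the call of a member. The median log2 ratio of the members moved by more than 0.0653, the SD of the array medians within groups, in 19 of 164 cases. With arrays centred on the median it was -0.11 for the strain difference in KO lenses, 0.01 for the averaged KO effect, 0.10 for the KO effect in 129SvJae and -0.13 for the interaction. With a mean above 100 it was -0.09 for the strain difference in KO lenses, and after quantile normalization -0.02 for the averaged KO effect. Over members with a mean signal above 1000, an alternative chosen after seeing the data, it was -0.13 for the averaged strain difference and -0.17 for that in KO lenses. Leaving out 1 array at a time gave -0.17 (without C57BL/6J WT replicate 1) to 0.02 (without C57BL/6J KO replicate 2) for the averaged strain difference, -0.15 to -0.02 for that in KO lenses, -0.13 to 0.08 for that in WT lenses, -0.21 to -0.04 for the KO effect in C57BL/6J and -0.17 to 0.04 for the interaction. The lone array left in a group is then assumed to vary like the others. The fit blocked by scan session likewise takes the mean of 129SvJae WT from replicate 1 alone. The causes were not tested. Of 22 named members, 11 changed sign somewhere for the averaged strain difference, none with a ratio beyond 0.44 in size, and 13 for the averaged KO effect, none beyond 0.24. At the methods' thresholds for p and fold, the methods' t-test took in 0 members in each of the comparisons it can make, against 129 of all probe sets for the averaged strain difference, and 0 members against 20 after Benjamini-Hochberg adjustment. In limma, all probe sets called for that difference numbered 37, and 19 with arrays centred on the median, 1 with a constant variance prior, 24 with a gene's probe sets averaged, 58 in the fit with a replicate block, 86 in that blocked by scan session, and 18 (without 129SvJae KO replicate 2) to 52 (without 129SvJae WT replicate 2) with 1 array left out. The methods' t-test gives no interaction, and a fit of only the groups compared gives no averages. Signals near background limit the 15 dim members.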
